A study of Mus musculus with 10 samples.

Results

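The immediate early genes Fos, Fosb, Jun, Junb, Jund, Egr1, Arc, Npas4, Nr4a1 and Ier2 were followed through 10 single neurons of the preBötzinger complex (preBötC), the brainstem site that generates inspiratory rhythm. These 10 genes were listed by name, with earlier results of these data known. All 10 were found among the 55367 genes of the deposited expression table. Patch-Seq was performed on inspiratory neurons in rhythmically active slices of neonatal mice: each cell was recorded in whole-cell mode, its contents were drawn into the pipette and 1 library was made from it. Of these, 4 were Type-1 neurons (samples 4 to 7), 1 was a Type-2 neuron (sample 1) and 5 were Unknown, meaning that the recording did not place them in either type (samples 2, 3, 8, 9 and 10). By the labels, samples 1, 5, 6 and 7 are Dbx1-derived neurons of Dbx1;Ai148 mice, in which Cre recombinase under the Dbx1 promoter switches on the calcium indicator GCaMP6f, on a C57Bl/6J or mixed background. They were chosen by rhythmic fluorescence, which also depends on descent from Dbx1-expressing precursors. Samples 2, 3, 4, 8, 9 and 10 are labelled WT and come from CD-1 mice without the reporter, where cells were chosen by activity in step with hypoglossal output. Samples 1, 3, 5 and 8 were taken at P0, sample 10 at P1, samples 2 and 9 at P2, and samples 4, 6 and 7 at P3. All slices were bathed in solution with raised potassium, and none of the 10 samples is an unstimulated or unhandled control. No animal is named for any neuron, and only 1 cell represents Type-2. The groups were therefore not tested, and p-values are left out.

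Immediate early genes are switched on within minutes of a stimulus from transcription factors already present in the cell, so new protein synthesis is not needed. In neurons, calcium entry during firing drives them through CREB, SRF with its Elk partners, and the MAP kinase and calcium/calmodulin kinase pathways, and many are also induced in neurons and glia by tissue dissociation or injury. Most members encode transcription factors, while Arc encodes a synaptic protein that controls AMPA receptor trafficking.

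The libraries held 21392146 to 36629393 fragments on genes and 10663 to 13738 genes with at least 1 fragment. Values are FPKM, which divides the count by the length of the gene in kilobases and by the library total in units of 1000000 fragments. Levels are set side by side on this scale, which does not correct for differences in RNA composition between libraries. The 10 most abundant genes took 4.89 to 20.8% of the fragments. A gene without a fragment may still hold up to 3 by chance, which is 0.0348 to 0.0596 FPKM for Fos. Such limits cover counting error alone, since fragments carry no molecular identifiers. Scaling by median-of-ratios size factors in place of totals would raise sample 1 by 1.41 on the log2 scale and lower sample 10 by 0.73. Marker lists were scored as the mean log2(FPKM + 1) of their genes. Sample 4 went against its label as a neuron: its neuron score was 2.10 against 4.51 to 7.58 in the other libraries, and its microglia score was 9.79 against 0.56 to 6.68. All 12 microglia genes were at 1 FPKM or more in it. Oligodendrocyte lineage scores were 0.02 to 2.51. At most 1 endothelial, 1 ependymal and 2 erythroid genes, and no mural gene, reached 1 FPKM in any library. Beside the means and correlations that it could move, values without it are given where enough neurons remain.

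Fos, on the plus strand at chr12:85473890-85477273 in GRCm38, Junb, on the minus strand at chr8:84974484-84978718, and Nr4a1, on the plus strand at chr15:101254269-101274795, are shown by the promoter windows of RefSeq, because CREB acts through the letters TGACG and these members held between 1 and 4 copies. Each run gives the 250 bases before the RefSeq start, 5′ to 3′ on the strand of the gene, with TGACG or its reverse complement in capitals. The windows of Nr4a1 and, among those counted below, Npas4 lie inside their GENCODE genes, upstream of an internal start, and that of Jund ends before the GENCODE start of its gene, so RefSeq and GENCODE place these 3 starts differently.
Fos (GRCm38.p6, chr12:85473640-85473889, plus strand): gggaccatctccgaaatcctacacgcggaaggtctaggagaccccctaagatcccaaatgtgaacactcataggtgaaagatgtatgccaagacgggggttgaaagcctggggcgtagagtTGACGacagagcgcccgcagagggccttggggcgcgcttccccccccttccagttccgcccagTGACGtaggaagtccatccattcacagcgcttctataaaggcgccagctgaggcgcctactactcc
Junb (GRCm38.p6, chr8:84978749-84978998, minus strand): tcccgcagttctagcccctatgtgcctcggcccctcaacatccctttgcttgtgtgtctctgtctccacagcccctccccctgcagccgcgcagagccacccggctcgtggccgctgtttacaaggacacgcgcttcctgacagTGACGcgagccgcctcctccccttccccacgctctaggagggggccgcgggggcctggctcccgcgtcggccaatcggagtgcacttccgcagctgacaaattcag
Nr4a1 (GRCm38.p6, chr15:101266596-101266845, plus strand): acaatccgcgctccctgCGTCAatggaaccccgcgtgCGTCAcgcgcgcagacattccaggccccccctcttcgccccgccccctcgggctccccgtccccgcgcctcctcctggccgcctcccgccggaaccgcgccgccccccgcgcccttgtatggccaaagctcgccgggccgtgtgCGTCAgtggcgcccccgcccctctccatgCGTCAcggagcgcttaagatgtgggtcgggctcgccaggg
Windows were found for 7 of the 10 members, and Egr1, Arc and Ier2 had no entry. On either strand, TGACG was found in 5 of these 7 windows (Fos, Fosb, Junb, Npas4 and Nr4a1), where 17.8% of 32851 promoter windows of the same length held it. In Fos its copies began at positions -129 and -66 relative to the start. The Nr4a1 window held 4 copies, as did 0.137% of all windows. The full palindrome TGACGTCA, which contains TGACG on both strands, was in 0 of 7 windows (1.55% of all), as was the CArG box bound by SRF (1.47%). The AP-1 site TGANTCA was in 0 of 7 (6.75%), the Egr site GCGNGGGCG in 2, Fosb and Nr4a1 (4.70%), and TATAA on the strand of the gene in 2, Fos and Npas4 (16.0%). These are matches of letters in a short window, which leaves out any sites further upstream, and not sites shown to be bound.

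The remaining members, in GRCm38, are Fosb at chr7:19302696-19310051 (minus strand), Jun at chr4:95049034-95052222 (minus), Jund at chr8:70698949-70700616 (plus), Arc at chr15:74669083-74672570 (minus), Npas4 at chr19:4984355-4990316 (minus), Ier2 at chr8:84661331-84662852 (minus) and Egr1. Jun, Jund and Ier2 have a single exon in every annotated transcript. Jun shares 232 exon bases with the antisense gene Junos, Jund shares 877 with the antisense gene Gm11175, and Junb shares 173 with Prdx2. Junos and Gm11175 were at 0 counts in all 10 libraries, whereas Prdx2 had 5500 to 30918 counts. The deposited length of Junb is 1809 bases, against 2301 exon bases in GENCODE, and its FPKM depends on that length. How the authors' counting treated a fragment over such shared bases is not given in the sources used here, and the library kit does not mark strand, so the levels of Jun, Junb and Jund are uncertain to that extent.

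By mean over the 10 neurons the order of levels was Fos at 99.6 ± 94.9 FPKM (SD, n = 10 neurons), Ier2 at 37.8 ± 56.1, Junb at 28.3 ± 38.1, Egr1 at 23.2 ± 19.6, Jund at 14.1 ± 8.86, Nr4a1 at 9.89 ± 23.1, Jun at 6.90 ± 10.6, Arc at 5.68 ± 10.7, Fosb at 1.16 ± 1.74 and Npas4 at 0.654 ± 2.06. Each step between neighbours in this order was smaller than the SD of the higher of the pair. Without sample 4, Ier2 was at 28.2 ± 50.2 FPKM (SD, n = 9), Junb at 18.2 ± 22.5 and Egr1 at 21.1 ± 19.5, so Junb and Egr1 changed places. Fos and Jund were the 2 members that reached 1 FPKM in 9 or more neurons, as 24.4% of 10405 genes did, those that had fragments in 7 or more neurons. Junb and Egr1 reached 1 FPKM in 7 neurons each, Jun and Ier2 in 5, Fosb and Nr4a1 in 4, Arc in 3 and Npas4 in 1. The members therefore ranged from one seen in nearly every cell to one seen in a single cell.

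**Figure D1:**
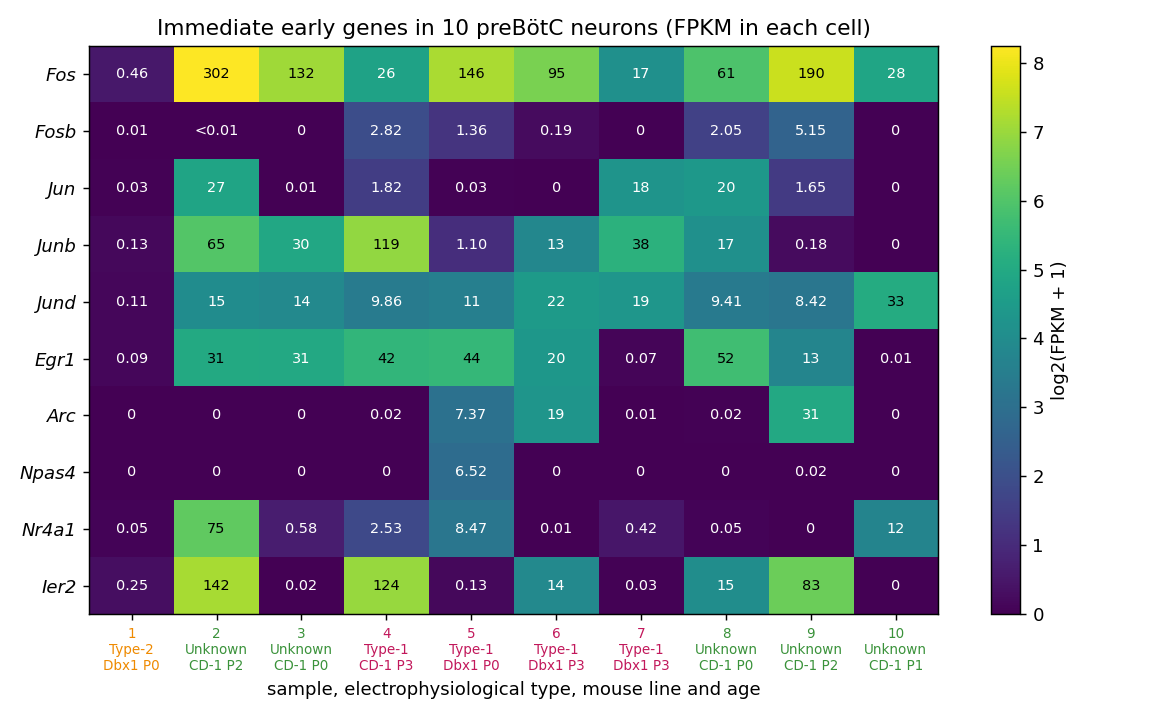
FPKM of the 10 immediate early genes (rows) in each of the 10 neurons (columns, with type, mouse line and age), coloured by log2(FPKM + 1), 1 library per neuron. Fos lies between 16.8 and 302 FPKM in samples 2 to 10 and at 0.457 in sample 1, whereas Npas4 reaches 6.52 in sample 5 and Arc passes 1 FPKM in samples 5, 6 and 9.

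Fos encodes c-Fos, which pairs with Jun proteins to form the transcription factor AP-1 and is the most used marker of recent neuronal activity. Its level was 26.0, 146, 94.6 and 16.8 FPKM in the Type-1 neurons (samples 4 to 7), 302, 132, 60.8, 190 and 28.0 FPKM in the Unknown neurons (samples 2, 3, 8, 9 and 10), and 0.457 FPKM in the Type-2 neuron. The Type-1 and Unknown ranges overlapped and sample 1 lay below both. Fos ranked among the more abundant genes in most cells, between the 73.2 and 98.3 percentile of the genes detected in samples 2 to 10 and at the 51.7 percentile in sample 1. Sample 1 held 23 Fos fragments (exact Poisson 95% interval 14.6 to 34.5), against 1013 to 25742 elsewhere. With size factors in place of totals its Fos level would be 1.22 FPKM, still the lowest of the 10.

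Fosb, a second Fos family protein of which the stable splice form ΔFosB builds up with repeated stimulation, was far lower. It was at 5.15 FPKM in sample 9, 2.82 in sample 4, 2.05 in sample 8 and 1.36 in sample 5. Sample 6 had 38 fragments (0.193 FPKM), samples 1 and 2 had 1 fragment each and samples 3, 7 and 10 had none. Sample 2, which had the most Fos, thus held 1 Fosb fragment. Fos made up at least 90.2% of the summed Fos and Fosb level in every neuron.

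Junb, a Jun family member that is itself quickly induced and often restrains c-Jun, had levels of 119, 1.10, 13.0 and 38.2 FPKM among the Type-1 neurons (samples 4 to 7) and at 65.1, 30.0, 16.5, 0.175 and 0 FPKM in the Unknown neurons (samples 2, 3, 8, 9 and 10). The Type-2 neuron had 0.129 FPKM from 5 fragments. Sample 4, the library rich in microglial RNA, was the highest. Without it the highest was sample 2.

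Jund, the Jun family member that most cells keep on without a stimulus, was the steadiest member by SD over mean. Its levels were 9.86, 10.7, 21.7 and 19.1 FPKM among the Type-1 neurons (samples 4 to 7) and at 15.0, 13.9, 9.41, 8.42 and 32.6 FPKM in the Unknown neurons (samples 2, 3, 8, 9 and 10). The Type-1 range lay within the Unknown range. Sample 1 had 0.112 FPKM, from 4 fragments, where 3 fragments would be 0.0841 FPKM.

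Jun, which encodes c-Jun and responds to stress and injury kinases as well as to activity, was patchy. It was at 27.3, 19.9 and 18.2 FPKM in samples 2, 8 and 7, and at 1.82 and 1.65 FPKM in samples 4 and 9. The other 5 neurons held between 0 and 4 fragments each. The high cells included Type-1 and Unknown neurons, both mouse lines and ages from P0 to P3.

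The leading Jun gene differed from cell to cell. Junb led the summed level of Jun, Junb and Jund in samples 2, 3, 4 and 7 with 50.6 to 91.0% of the sum, Jund led in samples 5, 6, 9 and 10 with 62.5% of it or more, and Jun led in sample 8 with 43.5%. In sample 1 the sum was 0.271 FPKM and its leader rests on 5 fragments. The ratio of the Fos family sum to the Jun family sum ran from 0.221 in sample 4 and 0.222 in sample 7 to 12.4 in sample 5 and 19.0 in sample 9, with a median of 2.73 over the 9 neurons with a Jun sum of at least 1 FPKM. Type-1 neurons thus lay near both ends of this range.

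**Figure D2:**
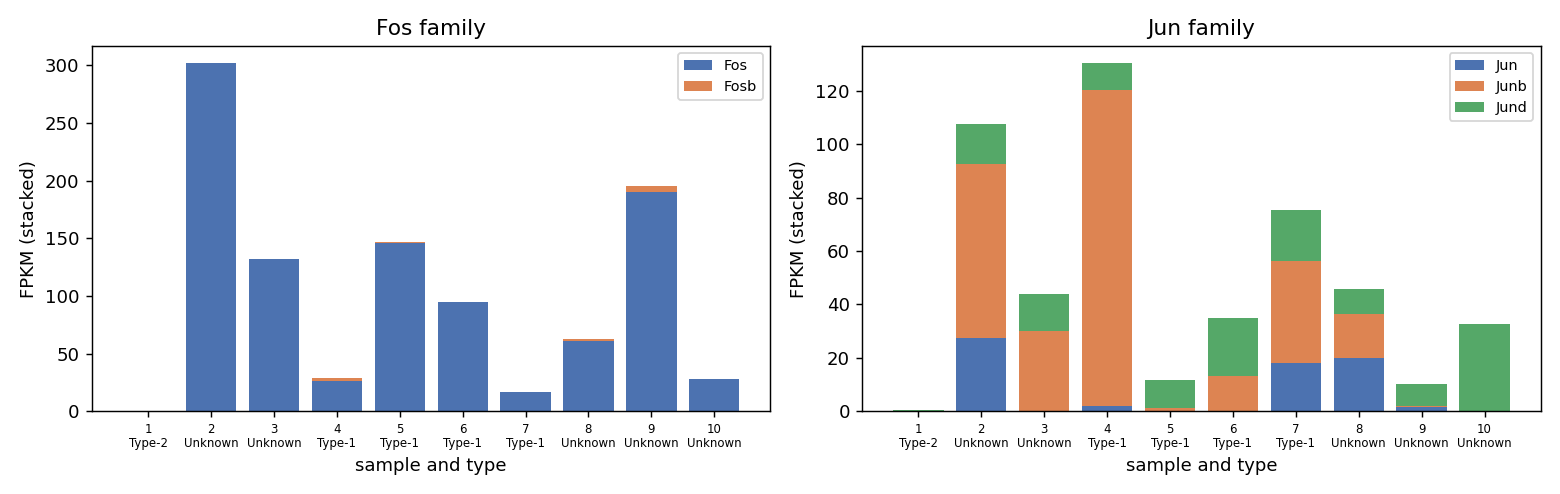
Stacked FPKM of the Fos family (left: Fos, Fosb) and the Jun family (right: Jun, Junb, Jund) in each neuron, 1 library per bar, with separate vertical scales that start at 0. Fos fills nearly the whole left bars, while the main Jun gene changes from Junb (samples 2, 3, 4 and 7) to Jund (samples 5, 6, 9 and 10) and Jun (sample 8).

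Egr1, a zinc finger transcription factor induced by activity and growth factors, was either close to 0 or well above it. It was at 42.0, 43.7 and 19.7 FPKM in samples 4 to 6 and at 31.4, 30.8, 51.6 and 12.6 FPKM in samples 2, 3, 8 and 9. In samples 1, 7 and 10 it had 9, 8 and 1 fragments, all under 0.1 FPKM. No neuron lay between 0.0938 and 12.6 FPKM. Fos was nevertheless at 16.8 and 28.0 FPKM in samples 7 and 10. The highest Egr1 level was in sample 8, or in sample 4 when size factors replaced totals.

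Nr4a1, an orphan nuclear receptor induced by calcium and cAMP, was carried mostly by 1 cell. Sample 2 had 74.6 FPKM, which is 75.4% of the sum over the 10 neurons. Samples 10, 5 and 4 had 12.2, 8.47 and 2.53 FPKM. The remaining neurons were between 0 and 0.576 FPKM. Sample 10 thus held Nr4a1 with 1 fragment of Egr1 and none of Ier2 or Junb.

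Ier2, a short nuclear protein of the immediate early response, split the cells widely. It was at 142, 124 and 82.9 FPKM in samples 2, 4 and 9, and at 15.3 and 13.9 FPKM in samples 8 and 6. The other 5 neurons were at 0.245 FPKM or lower, with at most 8 fragments. Scaled by size factors, sample 4 rather than sample 2 was the highest.

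Arc and Npas4 are the members best known from neurons. Arc was at 30.7 FPKM in sample 9, 18.6 in sample 6 and 7.37 in sample 5, and elsewhere held 0 to 2 fragments. Npas4, a transcription factor that responds to calcium influx and little else, was at 6.52 FPKM in sample 5, from 988 fragments. It had 2 fragments in sample 9 and none in the other 8 neurons, whose upper limits were 0.0200 to 0.0339 FPKM. Samples 5, 6 and 9 had neuron scores of 7.44, 6.70 and 7.58, and microglia scores of 3.01, 1.71 and 0.91. Sample 7 had a neuron score above that of sample 6 and the lowest microglia score of all, 0.56. It nevertheless held 1 Arc fragment and none of Npas4, so these scores did not set the neurons with Arc apart. Sample 5 was the single neuron with fragments of all 10 members, and is a Dbx1-derived Type-1 neuron of P0. Its Ier2 and Jun rest on 7 and 4 fragments, where the spillover between libraries described below would give 6.12 and 1.13. Holding all 10 members may therefore not be a trait of this neuron. As Arc and Npas4 had fragments in 6 and 2 neurons, they did not pass the filter of 7 or more neurons with fragments, so 8 of the 10 members entered the comparisons with all genes.

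Seen by cell, the number of members at 1 FPKM or more was 0, 7, 4, 8, 8, 6, 4, 7, 7 and 3 in samples 1 to 10. The member score, the mean log2(FPKM + 1) over the 10 genes, was 0.14, 4.15, 2.16, 3.28, 2.80, 2.77, 1.87, 2.93, 3.02 and 1.37 in the same order, so it spanned 4.01 between samples 1 and 2. Without sample 1 the span was 2.79. Together the members took 0.156% of the fragments in sample 2, 0.0163 to 0.0775% in samples 3 to 10, and 0.000262% in sample 1. The highest value fell in sample 2 for 4 members (Fos, Jun, Nr4a1 and Ier2), in sample 9 for Fosb and Arc, and in samples 4, 5, 8 and 10 for Junb, Npas4, Egr1 and Jund. In 3 of the 10 members a single neuron held over 50% of the summed level. Of the 8 that passed the filter it was 1 (Nr4a1), or 12.5%, against 21.1% of all genes passing it.

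The Type-2 neuron had no member at 1 FPKM, although Fos would pass that level, at 1.22 FPKM, if size factors replaced totals. It was low in many other genes too: of the 4421 genes that reached 1 FPKM in 7 or more of the other 9 neurons, 42.0% were below 1 FPKM in sample 1. The same count gave 28.2, 32.0 and 27.1% in samples 2, 3 and 4, and 3.48 to 16.7% in samples 5 to 10, so low detection was shared by samples 1 to 4. The paper reports that these samples had the least concentrated cDNA, though all passed its limit. It also reports a lower median level and more variable levels in them than in samples 5 to 10. Samples 2 and 4 nevertheless had the 2 highest member scores. The neuron score of sample 1 was 4.51, the second lowest. The part of this shortfall in the member values was not tested. The 56 member fragments in sample 1 were set against the number that spillover between libraries would give, as measured on genes found almost wholly in 1 library. That number was 36.2, with 17.6 expected for 23 Fos fragments and 5.99 expected for 9 Egr1 fragments. In sample 7, 8 Egr1 fragments were found and 7.64 expected. Of the 100 pairs of a member and a neuron, 54 were at 1 FPKM or more, 20 were at 0 and 26 lay between, with at most 63 fragments. In 14 of these 26 the count was no more than 2 times the expected spillover, a limit chosen after the values were seen. The other 12 lay further above it, such as Nr4a1 in sample 3, with 63 fragments and 0.0953 expected. All low values enter the ranks used below.

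Between the labelled groups, none of the members separated. For Type-1 against Unknown neurons, 0 of 8 members had ranges that did not overlap, where 1.37% of genes had none. For Dbx1-derived against WT neurons it was 0 of 8 (background 2.63%), and for P0 against P2 to P3 it was 0 of 8 (background 1.05%). Arc and Npas4 overlapped in all of these as well. Mean Fos was 70.8 ± 60.9 FPKM in Type-1 (SD, n = 4) and 143 ± 109 FPKM in Unknown neurons (SD, n = 5), a difference smaller than either group's range. Without sample 4 the Type-1 mean was 85.7 ± 64.9 FPKM (SD, n = 3). The member score averaged 2.68 ± 0.59 and 2.73 ± 1.04 in the same groups, and 2.48 ± 0.53 in Type-1 without sample 4. It averaged 1.90 ± 1.24 in the 4 Dbx1-derived and 2.82 ± 0.96 in the 6 WT neurons, whose microglia scores were 1.59 ± 1.05 and 5.02 ± 2.98. In the 5 WT neurons without sample 4 these were 2.73 ± 1.04 and 4.06 ± 2.07. Since 3 of 4 Type-1 neurons are Dbx1-derived and all 5 Unknown neurons are WT, type and line cannot be told apart.

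The levels were then compared with the glial RNA of each library, since immediate early genes are also induced in glia. Microglia scores were 1.09, 6.68, 3.88, 9.79, 3.01, 1.71, 0.56, 4.61, 0.91 and 4.22 in samples 1 to 10, led by Tyrobp, C1qb and C1qa. Astrocyte scores were 2.87, 4.21, 4.89, 2.15, 2.11, 1.07, 1.34, 4.78, 1.16 and 1.84, led by Fabp7, Aldoc and Agt. Fabp7 is also made by neural progenitors and Aldoc by some neurons. The microglial receptor gene Csf1r was at 245 and 106 FPKM in samples 4 and 2, and at or below 0.326 FPKM in the other 8. Other microglia genes were less confined. Of the 12, the number at 1 FPKM or more was 2, 11, 7, 12, 10, 5, 1, 10, 2 and 11 in samples 1 to 10. The glial score joined 34 genes of microglia, astrocytes and the oligodendrocyte lineage.

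Over the 10 neurons, Spearman's rho with the microglia score was 0.64 for Nr4a1, 0.58 for Egr1, 0.43 for Junb, 0.37 for Ier2, 0.26 for Jun, 0.18 for Fos, 0.12 for Fosb and 0.08 for Jund. Nr4a1 alone was at 0.6 or more, 1 of 8 members, or 12.5%, where 6.84% of 10405 genes were. The median was 0.31 for the 8 members and -0.09 for all genes. With the astrocyte score 0 of 8 reached 0.6 (background 3.97%), and the highest was Egr1 at 0.49. With the glial score 1 of 8 did, Nr4a1 at 0.68 (background 7.0%), followed by Junb and Egr1 at 0.54 each, while Fos was at 0.09 and Jund at 0.04. Arc and Npas4, with fragments in too few neurons, are not read this way. These neurons share 1 table, differ in depth and in line, and 10 points make each rho loose.

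These counts turned on single libraries. The number of members at 0.6 or more with the microglia score was 0 without sample 1, 2, 6 or 9, 2 without sample 5 or 7, and 3 without sample 10. It stayed at 1 without sample 4, and the median of the 8 members was then 0.21 against -0.03 for all genes. With the glial score the number was 0 without sample 9, 2 without sample 1, 5, 6 or 7, and 3 without sample 10. Within the 6 WT neurons, where microglial RNA was higher, 4 of 8 members were at 0.6 or more with the microglia score (Junb at 0.71, Egr1 at 0.66, and Jun and Nr4a1 at 0.60), where 11.8% of genes were, while Fos was at -0.37. Sample 4 is among these 6, and neither the 5 left without it nor the 4 Dbx1-derived neurons were enough for the same value.

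The member score had a rho of 0.53 and a Pearson r of 0.52 with the microglia score. Leaving out samples 2 and 4, the farthest from the median, r was 0.19 over 8 neurons, so the relation rests on those samples, which are also the highest on the microglia axis and widen its range. Leaving out 1 neuron at a time gave a rho of 0.37 to 0.73, lowest without sample 2 or sample 4 and highest without sample 9. With the glial score r went from 0.48 to 0.13 on leaving out the same cells, and rho was 0.41. With the astrocyte score rho was 0.12. With the neuron score rho was 0.07 over 10 neurons and 0.42 without sample 4, with r at 0.10 and 0.65. Leaving out samples 1 and 4, the farthest from its median, gave a rho of 0.17 and an r of 0.06. Without sample 1 alone r was -0.23, so the value of 0.65 rests on sample 1. The member score had a rho of 0.50 with the mitochondrial share of fragments, which ran from 0.219 to 9.85%, and of 0.32 with the total count. With the mitochondrial share r went from 0.56 to 0.62 on leaving out samples 3 and 4, the farthest from its median. With the total count r went from 0.53 to 0.47 on leaving out samples 1 and 9. The part of these in the member levels was not tested.

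**Figure D3:**
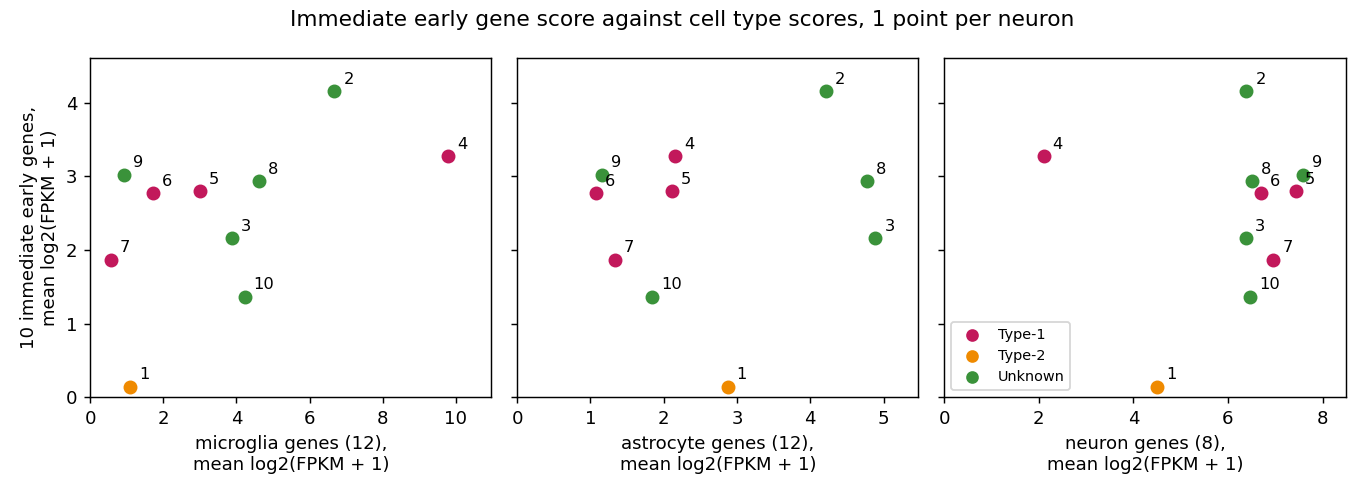
Member score (vertical axis, mean log2(FPKM + 1) of the 10 genes) against the microglia, astrocyte and neuron scores on the same scale, 1 numbered point per neuron, coloured by type. Samples 2 and 4 lie at the upper right of the microglia panel at 6.68 and 9.79, and sample 9, with a microglia score of 0.91, has a member score of 3.02.

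Samples 9 and 2 show how loosely the measures went together. Sample 9 had a microglia score of 0.91 with Fos at 190, Ier2 at 82.9, Arc at 30.7 and Fosb at 5.15 FPKM. Sample 2 had a microglia score of 6.68 with Fos at 302, Ier2 at 142 and Nr4a1 at 74.6 FPKM, and no Arc fragment. Sample 4, which had the most microglial and the least neuronal RNA, had Junb at 119 and Ier2 at 124 FPKM beside a Fos level of 26.0 FPKM. As each library is a bulk of what the pipette held, RNA from a second cell and expression by the neuron cannot be told apart.

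Other genes of the response were read from lists. Of 24 other genes tied to tissue handling, 13 passed the filter and 7 had a rho of 0.6 or more with the microglia score, where 6.84% of all genes did: the chemokine genes Ccl3 at 0.89 and Ccl4 at 0.78, the NF-κB inhibitors Nfkbia at 0.83 and Nfkbiz at 0.65, Ier3 at 0.83, the mRNA decay factor Zfp36 at 0.73, and Gadd45b at 0.60. None was at -0.6 or less, and the list's median was 0.60. Without sample 4 it was 5 of 13, where 6.81% of all genes did, and the median was 0.45. Ccl3 and Ccl4 are made chiefly by microglia and other myeloid cells. In sample 4, Ccl4 was at 18372, Ccl3 at 11305, Nfkbia at 1782 and Gadd45b at 707 FPKM. The highest level of 11 of the 24 genes, 45.8%, was in sample 4, as for 10.0% of the 10 members. Of all genes passing the filter it was 12.1%. Both lists hold genes that did not pass it, so these shares are not of like sets. Ccl4 and the small GTPase gene Rhob reached 1 FPKM in 9 or more neurons. For Ccl4 the lower values, such as 4.34 and 8.08 FPKM in samples 5 and 6, may hold spillover from sample 4. Its part in them was not tested. The score of this list had a rho of 0.61 and an r of 0.52 with the member score, and an r of 0.35 without samples 1 and 4.

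Of 20 other genes tied to neuronal activity, 10 passed the filter, 0 had a rho of 0.6 or more with the microglia score and 2 were at -0.6 or less, Vgf at -0.77 and Nrn1 at -0.61, against 7.12% of all genes at -0.6 or less. The list's median was -0.12. Its most abundant genes were the secretogranin Scg2 at a mean of 85.9 ± 92.4 FPKM (SD, n = 10), the polo-like kinase Plk2 at 36.6 ± 27.6, Nrn1 at 33.5 ± 50.7 and the mTOR-activating GTPase Rheb at 23.8 ± 13.7. Rheb alone of this list reached 1 FPKM in 9 or more neurons. The score of these 20 genes had a rho of 0.24 and an r of 0.54 with the member score, and an r of 0.02 without samples 1 and 8.

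Of 14 kinases and transcription factors that act upstream of the members, 10 passed the filter, 0 had a rho of 0.6 or more with the microglia score, and Camk2b was at -0.70. Camk2b, Mapk3 and Camk4 were among its most abundant genes, at means of 35.9, 34.2 and 20.1 FPKM, and Camk2b and Mapk3 reached 1 FPKM in 9 or more neurons. In the Type-2 neuron, where no member reached 1 FPKM, Camk2b was at 90.9 FPKM, with Mapk3 at 0.104 and Camk4 at 0.0717 FPKM. Camk4 was also low, at 0.440 and 0.0625 FPKM, in samples 2 and 4, which had the highest member scores. Srf was at 0 counts in all 10 libraries.

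**Figure D4:**
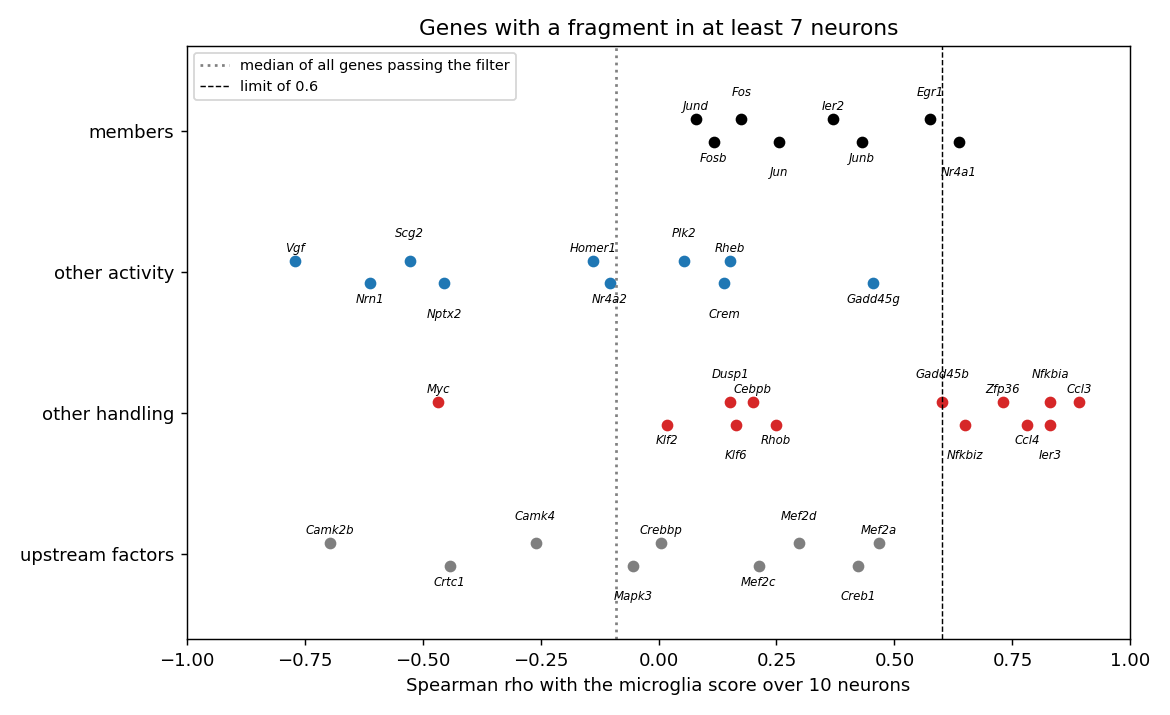
Spearman's rho with the microglia score over the 10 neurons (horizontal axis) for genes of the 4 lists that had fragments in 7 or more neurons. The members lie between 0.08 and 0.64, and 7 handling genes lie at or beyond the dashed limit of 0.6. The dotted line is the median of all genes, -0.09.

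**Figure D5:**
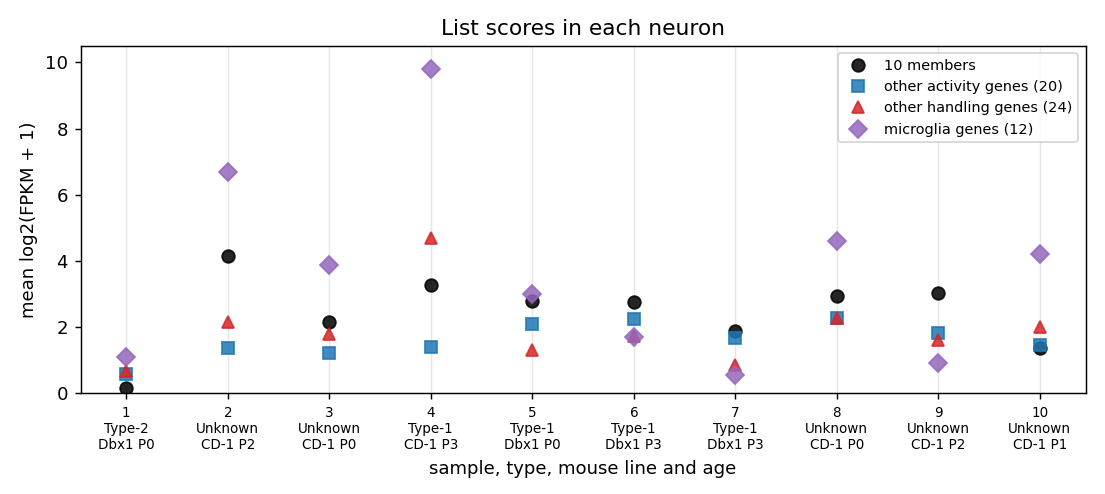
Scores (vertical axis, mean log2(FPKM + 1)) of the members, the other activity genes, the other handling genes and the microglia genes in each neuron. The handling score peaks in sample 4 at 4.69, whereas the member score peaks in sample 2 at 4.15 and the activity score in sample 8 at 2.26.

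The members rose and fell with each other loosely. Of the 28 pairs among the 8 members that passed the filter, 3 had a rho of 0.6 or more, where 6.44% of all gene pairs did: Fosb with Ier2 at 0.68, and Jun with Junb and with Ier2 at 0.63 each. Fosb with Jund was at -0.64. The median over pairs was 0.20, against 0.05 for all genes. Fos was at no more than 0.39 with any of the other 7, its partner there being Egr1. The number of pairs was 1 without sample 2 or 10 and 5 without sample 5 or 9.

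By likeness of pattern, the genes closest to Fos among 10419 that reached 1 FPKM in 3 or more neurons were the postsynaptic scaffold gene Dlgap3 with a rho of 0.93, the endosomal sorting gene Pdcd6ip and the pseudogene Rab11b-ps2 at 0.92 each, the TGF-β signal mediator Smad2 at 0.90, and the proteasome subunit Psmb1 at 0.89. Rab11b-ps2 may take reads of its parent gene. Those closest to the member score among 10420 were the MAP kinase-interacting kinase Mknk2 at 0.96, the pseudogene H3f3a-ps1 at 0.95, the leukocyte actin-bundling gene Lcp1 and the interferon-induced gene Ifi27 at 0.94 each, and Abracl at 0.93. They are the top of these many comparisons on 10 neurons, and are given as a description of the pattern.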

How the data were processed

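RNA of 10 single neurons was amplified with the SMART-Seq v4 kit. The authors trimmed reads with bbduk, checked them with FastQC 0.11.8, aligned them with STAR 2.7.7a to GRCm38 (mm10) and counted fragments per gene with featureCounts. For 55367 genes they deposited raw counts, FPKM values and lengths. The deposited FPKM equals the deposited count per kilobase and per 1000000 counted fragments, to within rounding. Counting options for multi-mapping fragments and strand are not given in the sources used here. Totals ran from 21392146 to 36629393 counts.

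FPKM values were used as deposited. List scores are means of log2(FPKM + 1), with a pseudocount of 1. Spearman's rho was computed over the 10 neurons for 10405 genes, those with fragments in 7 or more, and set against a limit of 0.6. Detection was set at 1 FPKM, and groups were compared by whether their ranges overlapped. Poisson intervals are exact, at 95%, and cover counting error alone. Groups were not tested against each other, because a sample is a single neuron, no label tells which animal it came from, and p-values over cells would measure only the spread between these cells. Dixon's criterion was used only to mark single neurons far from the others, with gene levels taken as log2(FPKM + 1). Groups follow the labels; the legends of the paper assign mouse lines differently, and that assignment was not used.

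Spillover was estimated from genes that had 10000 or more counts in 1 library while no other library exceeded 1% of that. As 5 libraries had no such gene, 3000 counts were used instead, which left 3 to 57 genes a library, and 39 of 90 ordered pairs of libraries had a rate above 0, at most 0.133%. This limit was chosen after seeing the data. The expected count of a gene is its counts in the other libraries times these rates.

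The members and lists were chosen with earlier results of these data known. The genes named are the 10 members, the 4 highest by mean FPKM of each response list (other activity, other handling, upstream) and those that reached 1 FPKM in 9 or more neurons, the 3 highest of the glial lists, and the 5 genes most like Fos and the member score. Genes of a list past the limit of 0.6 are also named, and so, after their values were seen, are Csf1r, Srf, Junos, Gm11175, Prdx2, and the genes of the closing section. Of 25 handling genes 24 were found. An upstream gene that the rule would name is not reported here. Promoter windows are from RefSeq (GRCm38.p6) and gene positions from GENCODE M21, on the build the authors used. The statistics were tested on simulated data. Alternatives were TPM, size factors, pseudocounts, filters, limits, Pearson's r, leaving out each neuron, and removal of expected spillover. Computing was done in Python 3.11.15 with SciPy 1.17.1, NumPy 2.4.6, Matplotlib 3.10.9 and pandas 2.3.3.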

Additional observations from a re-analysis of the deposited data

Results flagged for a closer look

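Neurons whose value lay far from all others of their group, by Dixon's criterion at 95%, were found in 6 of 39 groups of values, where chance gives about 1 in 20 for untied, normally distributed values. The Npas4 groups do not meet that, since nearly all their values tie at 0, and the groups overlap, so the number is not set against chance. Gene levels entered the criterion as log2(FPKM + 1), while the values printed here are FPKM. Among all 10 neurons, sample 1 was the low neuron for Fos at 0.457 FPKM, with the next at 16.8 FPKM. It was also the low neuron for Jund at 0.112 FPKM, with the next at 8.42 FPKM. On the log2 scale these gaps were 0.469 of the range for Fos and 0.627 for Jund. Sample 5 was the high neuron for Npas4 at 6.52 FPKM, both among all 10 neurons and among the 4 Type-1 neurons, in which the next value was 0. Among the 5 Unknown neurons sample 9 was the high one for Arc at 30.7 FPKM, with the next at 0.0246 FPKM, and for Npas4 at 0.0219 FPKM, which is 2 fragments against 0 in the other 4. That last value is below the 0.0329 FPKM that 3 fragments would give.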

How the results depend on the processing

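Depth limits the low values: a member without a fragment may be at up to 0.0131 to 0.092 FPKM, depending on its length and the library. Of the counts, spans and median glial rho values recomputed under the alternatives, 128 stayed within the limits set, 39 moved past them and 0 reversed. As counts and spans cannot be negative, a change of sign was open to the median rho alone. The counts of members without overlap were 0 in each setting and add to the 128, so this tally is no measure of robustness. The number of members at 0.6 or more with the microglia score was 0 with TPM, with Pearson's r and at a limit of 0.7, and 2 with size factors, with percent of counts in place of the score and at a limit of 0.5. With the glial score it was 3 with size factors or a limit of 0.5, 2 with a pseudocount of 0.1, and 0 at a limit of 0.7, with percent of counts, or after removing expected spillover. With the astrocyte score it was 1 with size factors. Pairs at the limit were 1 with TPM, 5 at a limit of 0.5, 0 at 0.7, and 5 when all members at 1 FPKM in any neuron entered, which adds Arc and Npas4. The span of the member score was 5.60 with a pseudocount of 0.1. Members at the detection level in at least 9 neurons numbered 1 (Fos) at 10 FPKM, and 0 reached 1 FPKM in all 10, or 1 (Fos) with size factors. The causes of these shifts were not tested, except where the alternative itself moves the limit. Leaving out each neuron in turn gave 0 to 3 members with the microglia score, 0 to 1 with the astrocyte score, 0 to 3 with the glial score, 1 to 5 pairs, a span of 2.79 to 4.01, a median glial rho of 0.04 to 0.40, 2 detected members throughout and 0 members without overlap throughout. No paired analysis was possible because replicate numbers only name samples, and groups were not tested.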

Other observations

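Several further activity and handling genes were carried almost wholly by 1 cell. These genes were picked with their values in view and are given as values with no explanation. Sample 4 held 99.8% of the summed level of Nr4a3, 99.5% of Egr2 and 94.6% of Egr3, at 19.0, 18.2 and 14.5 FPKM, and 99.8% of Atf3 at 134 FPKM. Egr4, by contrast, was at 72.1 FPKM in sample 2, 99.8% of its sum, and at 0.0158 FPKM in sample 4. Egr1 had levels of 42.0 and 31.4 FPKM in samples 4 and 2, and Egr2 and Egr3 of 0.0406 and 0.0188 FPKM in sample 2. Nr4a2 had 168 and 46.5 FPKM in samples 6 and 5, where its relative Nr4a1 was at 0.00905 and 8.47 FPKM. Dusp6, a phosphatase that switches off ERK, was at 59.1 FPKM in sample 3, which is 96.3% of its sum.

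Bdnf, a growth factor gene induced by activity, reached 19.2 and 6.64 FPKM in samples 9 and 8, and at most 0.200 FPKM in the other 8 neurons. Sample 9 also had the highest Arc and Fosb. Npas4, a known regulator of Bdnf, had 2 fragments in sample 9 and none in sample 8, while in sample 5, where Npas4 was at 6.52 FPKM, Bdnf was at 0.00439 FPKM. The heat shock genes Hspa1a and Hspa1b, near copies of each other whose reads cannot be told apart with certainty, were at 4.41 and 11.6 FPKM in sample 5. Hspa1b was at or below 0.807 FPKM elsewhere and Hspa1a at 0.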
